A study of Mus musculus with 7 samples.

Results

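Cytochrome P450 genes of families 1 to 3, without the Cyp2b subfamily, were followed in mouse liver before and after Cre-mediated deletion of Dicer1 in hepatocytes. The members were all genes with a single symbol in the platform annotation that began with Cyp1, Cyp2 or Cyp3 and a letter, which gave 44 of the 16819 genes measured. They fell into 16 subfamilies, and each was read by 1 probe set. Whole liver RNA was hybridised to 7 arrays, 1 for each liver, from male mice of mixed 129S4 and C57BL/6 background. All groups carried Dicer1 fl/fl, that is, both Dicer1 alleles flanked by loxP sites. The control group, at 0 weeks, held 3 arrays, and the groups 2 and 4 weeks after injection of AAV8-Ttr-Cre held 2 each. AAV8-Ttr-Cre is an adeno-associated virus that drives Cre recombinase from the hepatocyte-active transthyretin promoter. The series gives an age of 8 to 10 weeks at injection, and livers were taken after a 4 hour fast. No group with a virus lacking Cre and no control at 2 or 4 weeks was among the samples, so virus, Cre, elapsed time and loss of Dicer1 cannot be told apart. The labels do not say whether control mice received an injection.

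P450 enzymes of these families are haem proteins of the endoplasmic reticulum that add oxygen to drugs, pollutants, steroids and fatty acids, using electrons from P450 reductase and cytochrome b5. Liver is their main site, and hepatocytes around the central vein carry many of them. Several are switched on by ligand-activated regulators: the aryl hydrocarbon receptor acts on Cyp1 genes, and the receptors CAR and PXR on Cyp2c and Cyp3a genes. Others follow the sex-specific pattern of growth hormone release.

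The start regions of 6 members are shown because these Cyp2a and Cyp3a genes include 3 of the 5 members that rose, the member with the largest fold change, and close relatives whose arrays behaved differently. Each run is the 250 bases before the start of 1 annotated transcript, from RefSeq (GRCm38.p6), read 5′ to 3′ on the strand of the gene. For Cyp2a22, Cyp3a16, Cyp3a25 and Cyp3a44 the RefSeq gene record, which spans all transcripts, begins further upstream, inside the run. Cyp2a12 lies on the plus strand at chr7:27028840-27029089 and Cyp2a22 on the minus strand at chr7:26939387-26939636. On the minus strand of chromosome 5 lie Cyp3a11 (chr5:145879855-145880104), Cyp3a16 (chr5:145469724-145469973), Cyp3a25 (chr5:146009619-146009868) and Cyp3a44 (chr5:145805875-145806124). Capitals mark the letters CAAAGTCCA, an element of the kind bound by the hepatocyte nuclear receptor HNF4A.
Cyp2a12: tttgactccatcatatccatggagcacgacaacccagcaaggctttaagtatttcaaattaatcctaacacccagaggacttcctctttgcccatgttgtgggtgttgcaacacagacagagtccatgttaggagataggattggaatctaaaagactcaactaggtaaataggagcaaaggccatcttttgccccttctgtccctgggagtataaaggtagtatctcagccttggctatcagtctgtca
Cyp2a22: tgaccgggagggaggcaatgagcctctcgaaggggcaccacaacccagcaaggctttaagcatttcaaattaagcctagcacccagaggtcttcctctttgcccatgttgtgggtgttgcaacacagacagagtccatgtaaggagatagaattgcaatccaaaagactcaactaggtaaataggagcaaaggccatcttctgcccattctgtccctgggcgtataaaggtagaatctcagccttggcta
Cyp3a11: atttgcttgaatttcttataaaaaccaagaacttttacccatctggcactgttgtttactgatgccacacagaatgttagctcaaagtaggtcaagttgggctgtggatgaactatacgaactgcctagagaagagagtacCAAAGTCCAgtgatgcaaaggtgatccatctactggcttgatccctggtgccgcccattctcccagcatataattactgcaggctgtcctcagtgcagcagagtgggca
Cyp3a16: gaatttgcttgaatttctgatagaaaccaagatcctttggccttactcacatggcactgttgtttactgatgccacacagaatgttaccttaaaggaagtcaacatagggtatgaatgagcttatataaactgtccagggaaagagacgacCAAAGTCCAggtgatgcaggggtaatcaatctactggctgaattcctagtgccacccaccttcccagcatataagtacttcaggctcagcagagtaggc
Cyp3a25: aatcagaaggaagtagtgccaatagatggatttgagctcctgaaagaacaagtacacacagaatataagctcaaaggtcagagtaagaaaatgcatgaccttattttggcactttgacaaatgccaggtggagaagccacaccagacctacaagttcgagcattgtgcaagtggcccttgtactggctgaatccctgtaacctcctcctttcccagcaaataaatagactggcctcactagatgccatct
Cyp3a44: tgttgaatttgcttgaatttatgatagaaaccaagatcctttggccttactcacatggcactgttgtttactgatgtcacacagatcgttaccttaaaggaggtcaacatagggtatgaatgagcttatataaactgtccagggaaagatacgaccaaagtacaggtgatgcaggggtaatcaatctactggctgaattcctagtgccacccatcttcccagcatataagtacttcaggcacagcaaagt

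The start regions of the Cyp2a pair shared 215 of 250 bases (86%) in a pairwise alignment, and those of Cyp3a16 and Cyp3a44 shared 236 (94.4%). Cyp3a11 shared 80% with Cyp3a16 and 76.8% with Cyp3a44. Start regions were at hand for 35 members, and the 70 pairs within a subfamily shared a median of 61% (range 12% to 94.4%). In the 525 pairs of different subfamilies the median was 36.8% (range 0.4% to 63.2%). End gaps were free and identities were counted over 250 bases, so a pair aligned over a short overlap scored low. Cyp2c38 and Cyp2r1, for example, shared 1 base. The medians thus depend on the overlap reached, and cannot show how far relatives exceed unrelated sequence. CAAAGTCCA on either strand stood in 5 of the 35 (Cyp2c67, Cyp2c68, Cyp2c70, Cyp3a11 and Cyp3a16) and in 0.381% of 27025 promoters of the same length. None of these 5 passed the test for a change at either time. The letters AGGTCA, recognised by many nuclear receptors, stood in 9 of 35, against 13.8% of all promoters. The core GCGTG, to which the aryl hydrocarbon receptor binds with Arnt, stood in 6, against 28.2%, and the E-box CACGTG in 1, against 6.05%. TTCNNNGAA, of the kind bound by Stat5, stood in 0, against 7.18%. Close relatives share these letters by descent, so the counts are not independent.

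No member passed the test at 2 weeks, and 4 rose at 4 weeks: Cyp2a12, Cyp2d26, Cyp2j5 and Cyp3a44. Averaged over both times, these and Cyp3a25 rose, by 1.15- to 1.38-fold, and 0 members fell. An adjusted p under 0.05 in limma, with Benjamini-Hochberg adjustment over all 16819 genes, counted as passing. Over all genes, 5.93% passed at 2 weeks (either direction), 9.77% at 4 weeks and 12.9% for the mean of both times. Among members, 0 of 44, 4 of 44 (9.09%) and 5 of 44 (11.4%) passed, so at 4 weeks and for both times the share was near the background. For rises alone the background was 3.46% at 2 weeks, 5.15% at 4 weeks and 6.79% for both times. For falls it was 2.47%, 4.62% and 6.12%. At an unadjusted p under 0.05, 9 members passed at 2 weeks (20.5%, against 23% of all genes), 10 at 4 weeks (22.7%, against 24.8%) and 10 for both times (22.7%, against 27.4%), of which Cyp2d11, Cyp2d12 and Cyp2d40 were the ones below 0. With a 2-fold change required as well, 0 members passed at any of these, beside 0.88%, 1.32% and 1.24% of all genes. Without a test, the mean differed at least 2-fold in 1 member at 2 weeks (2.27%, against 1.48%), 5 at 4 weeks (11.4%, against 1.83%) and 3 for both times (6.82%, against 1.55%). The 5 at 4 weeks were Cyp2a22, Cyp2c39 and Cyp3a16 above control and Cyp2c37 and Cyp2d40 below it. The median log2 fold change of the members was -0.04 at 2 weeks and 0.09 at 4 weeks, beside 0.00 and 0.01 for all genes. All arrays lay above all controls for 12 members at 2 weeks (27.3%, against 17.3% of all genes) and 14 at 4 weeks (31.8%, against 21.6%), and below them for 4 at each time (9.09%, against 17.5% and 18.2%). For the 4 arrays after Cre together, 9 members lay above all controls (20.5%, against 12.9%). Both comparisons share the 3 control arrays. Nothing in the labels beyond the term biological replicate says how the livers of a group were related.

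**Figure D1:**
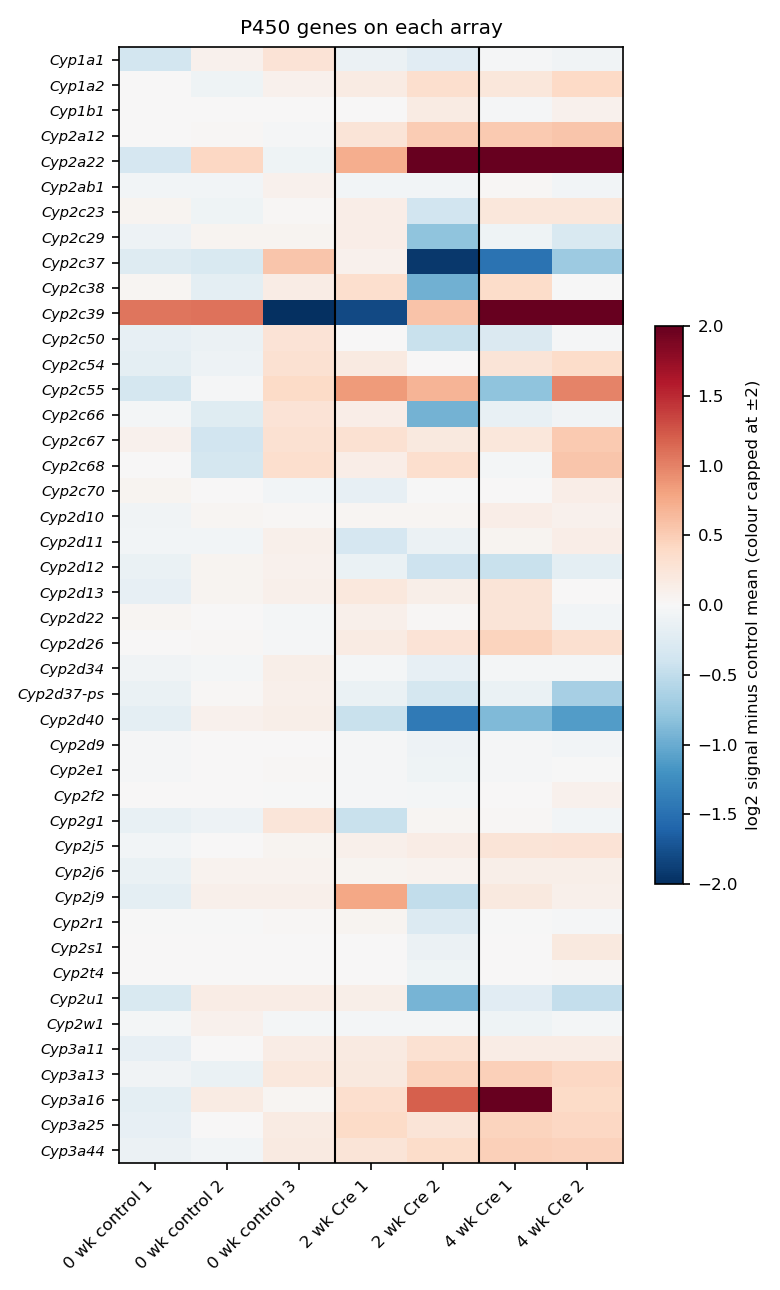
Log2 signal of each of the 44 P450 genes on each of the 7 arrays, as the difference from the mean of the 3 control arrays. Columns are arrays in order of time, rows are genes by subfamily, red is above and blue below the control mean, and colours are capped at 2 log2 units. Most rows are pale, while Cyp2a22, Cyp2c37, Cyp2c39, Cyp2d40 and Cyp3a16 carry differences of more than 1 log2 unit.

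Dicer1 itself was lower after Cre, at 8.03 and 7.79 at 2 weeks and 7.97 and 8.05 at 4 weeks, against 8.73, 8.71 and 8.58 in controls (log2 -0.76 and -0.66, adjusted p = 0.0158 and 0.0159). Medians of the 7 arrays lay between 7.073 and 7.09. On the first principal component of all genes, controls lay between -23.81 and -22.41, and the replicates after Cre at 6.56 and 24.26 (2 weeks) and at 18.39 and 19.77 (4 weeks), so 2 week replicate 1 stood nearest to the controls. The 8 measured hepatocyte markers had a mean log2 signal of 13.93 to 14.00 at 2 weeks and 13.95 to 14.00 at 4 weeks, against 13.99 to 14.05 in controls, and 1 of them, the tyrosine aminotransferase gene Tat, passed as a fall for both times. The mean of 10 stellate cell markers was 8.12 to 8.25 at 2 weeks and 8.06 to 8.07 at 4 weeks, against 7.93 to 7.98 in controls. The mean of 5 bile duct markers was 6.59 to 6.87 and 6.65 to 6.75 at these times, against 6.48 to 6.52. Of these, Pdgfrb (stellate) passed as a rise for both times and Sox9 (bile duct) at 4 weeks and for both times. Marker means of macrophages and lymphocytes overlapped between controls and both times, as did those of endothelial cells, of which Clec4g passed as a rise at 4 weeks. The part of these markers in the P450 values was not tested. In whole liver, fewer cells of a type and less RNA per cell cannot be told apart.

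In the Cyp2a subfamily, Cyp2a12, which hydroxylates testosterone, read 12.09, 12.11 and 12.05 in controls, 12.33 and 12.60 on the 2 week arrays, and 12.62 and 12.64 on those of 4 weeks. Every array after Cre was above every control array. It rose 1.46-fold at 4 weeks (log2 0.55, SE 0.08, adjusted p = 0.0202, limma, n = 2 and 3), and stood at 0.38 at 2 weeks (SE 0.08, adjusted p = 0.0586). After centring each array on its median, the 2 week value was 0.37 with an adjusted p of 0.0456, which made it the 1 member called at that time.

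Its neighbour Cyp2a22 had the largest fold change of the 44 members and did not pass. It read 4.67, 5.43 and 4.91 in controls, 5.73 and 9.62 on the 2 week arrays, and 9.58 and 8.51 on those of 4 weeks. The 2 week replicates thus lay 3.89 log2 units apart, one just above the controls and the other level with the higher 4 week array, and all arrays after Cre were above all controls. The log2 fold change was 2.67 at 2 weeks (SE 1.11, adjusted p = 0.232) and 4.04 at 4 weeks (SE 1.11, adjusted p = 0.0836), or 16.5-fold. The control signals lay below the lower quartile of the arrays (6.063 to 6.09), and whether they exceeded background is not known, so the size of the fold is uncertain. In a fit of the 4 week and control arrays alone, which leaves the discordant 2 week pair out of the estimate of spread, the same 4.04 had an SE of 0.42 and an adjusted p of 0.015. Without 2 week replicate 1 the value at 2 weeks was 4.61 (adjusted p = 0.019), and without replicate 2 it was 0.72 (adjusted p = 0.578), each with 1 array left and the spread taken from the other groups. For both times, 3.35 with all arrays (SE 0.93, adjusted p = 0.0747), it was 4.33 without replicate 1 (adjusted p = 0.00834) and 2.38 without replicate 2 (adjusted p = 0.0376). The array signals of Cyp2a12 and Cyp2a22 are not comparable as levels, since they come from different probes.

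**Figure D2:**
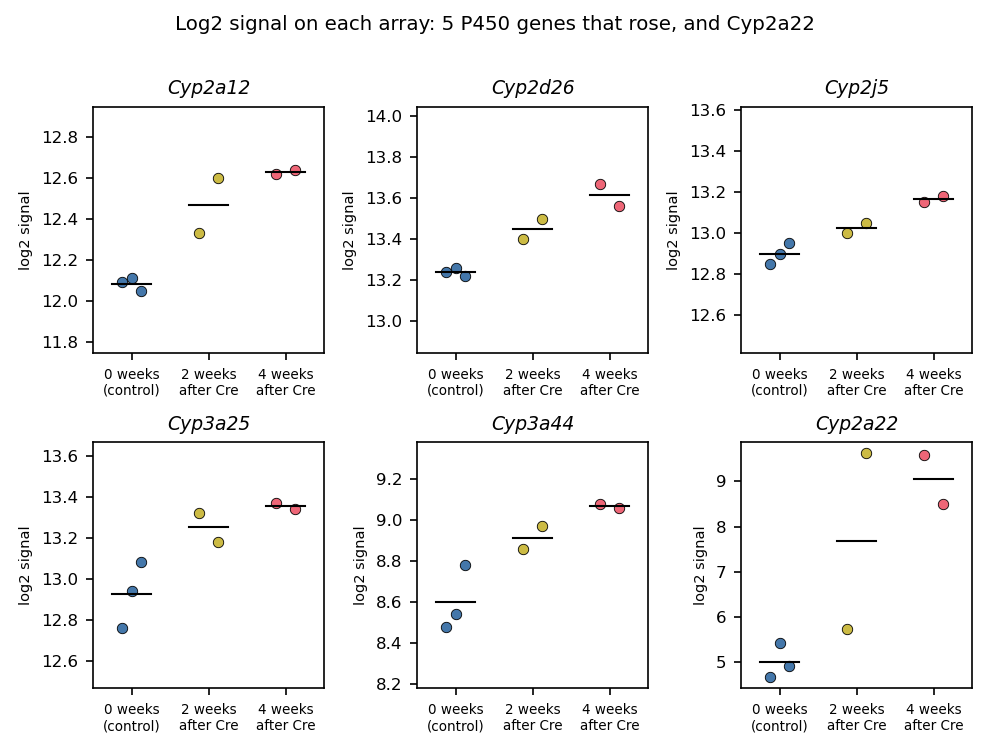
Log2 signal (y axis, each panel with its own range) on every array at 0 weeks (control), 2 weeks and 4 weeks for the 5 genes that rose and for Cyp2a22. Points are arrays and bars are group means. Cyp2a22 spans close to 5 log2 units, with 2 week replicates at 5.73 and 9.62, whereas the other panels span under 1.

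In the Cyp3a subfamily all 5 genes had a log2 fold change above 0 at both times, with a median of 0.32 at 2 weeks and 0.44 at 4 weeks. Of all 16819 genes, 8076 were above 0 at 2 weeks and 8840 at 4 weeks. The 5 are close relatives read against the same 3 controls, so their directions are not independent. Of the 5, 0 passed at 2 weeks and 1 at 4 weeks. Cyp3a44, known as a female-biased gene of mouse liver, read 8.48, 8.54 and 8.78 in controls, 8.86 and 8.97 on the 2 week arrays, and 9.08 and 9.06 on those of 4 weeks. The arrays of the 4 livers after Cre were all above the controls, and the gene rose 1.39-fold at 4 weeks (log2 0.47, SE 0.10, adjusted p = 0.0431).

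Cyp3a25 read 12.76, 12.94 and 13.08 in controls, 13.32 and 13.18 on the 2 week arrays, and 13.37 and 13.34 on those of 4 weeks, again without overlap. It rose 1.3-fold for the mean of both times (log2 0.38, SE 0.09, adjusted p = 0.0439) and stood at 0.43 at 4 weeks (SE 0.10, adjusted p = 0.0576). Cyp3a13 was close behind, at 0.44 at 4 weeks (SE 0.13, adjusted p = 0.0917), with 4 week arrays at 11.40 and 11.34, against 10.86, 10.79 and 11.14 in controls. Cyp3a11, the main PXR-induced drug-oxidising enzyme of mouse liver, had 13.07, 13.24 and 13.38 in controls, 13.41 and 13.53 at 2 weeks, and 13.38 on both arrays at 4 weeks. Its log2 fold change was 0.24 at 2 weeks (SE 0.10, adjusted p = 0.227) and 0.15 at 4 weeks (SE 0.10, adjusted p = 0.416).

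Cyp3a16, a gene of fetal and newborn liver in mice, was the most dispersed of the 5. Its control arrays read 3.47, 3.82 and 3.71, its 2 week arrays 4.00 and 4.87, and its 4 week arrays 6.59 and 4.06. All arrays after Cre exceeded the controls, but the 4 week value of 1.66 (SE 0.73, adjusted p = 0.239) rested on replicate 1: without it the value was 0.39, and without replicate 2 it was 2.92 (adjusted p = 0.0628). For both times, leaving out 4 week replicate 2 gave 1.84 with an adjusted p of 0.0445. In controls its signal lay near the lower end of the arrays, whose minima ranged from 3.154 to 3.467.

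Among 3 Cyp2j genes, which form epoxides of arachidonic acid, Cyp2j5 rose. It read 12.85, 12.90 and 12.95 in controls, 13.00 and 13.05 on the 2 week arrays, and 13.15 and 13.18 on those of 4 weeks, with no overlap between the groups. The rise at 4 weeks was 1.21-fold (log2 0.27, SE 0.05, adjusted p = 0.0284). Cyp2j6 was at 0.11 at 4 weeks (SE 0.07, adjusted p = 0.42). Cyp2j9 was at 0.15 (SE 0.36, adjusted p = 0.85), with 2 week arrays at 8.04 and 6.77 on either side of the controls (7.07, 7.36 and 7.36).

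The 10 Cyp2d genes held 1 that rose, Cyp2d26, which read 13.24, 13.26 and 13.22 in controls, 13.40 and 13.50 on the 2 week arrays, and 13.67 and 13.56 on those of 4 weeks. Controls, 2 week arrays and 4 week arrays did not overlap. It rose 1.3-fold at 4 weeks (log2 0.38, SE 0.06, adjusted p = 0.0193) and was at 0.22 at 2 weeks (SE 0.06, adjusted p = 0.0832). Next to it on the chromosome among the genes measured, Cyp2d40, chosen after its values were seen, pointed the other way. It had 9.88, 10.15 and 10.19 in controls, 9.64 and 8.65 on the 2 week arrays, and 9.19 and 8.95 on those of 4 weeks, and was the 1 member of 44 whose 4 arrays after Cre all lay below all controls (2.27% of members, against 12.2% of all genes).

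Cyp2d40 stood at -0.93 at 2 weeks (SE 0.29, adjusted p = 0.131), -1.0 at 4 weeks (SE 0.29, adjusted p = 0.0952) and -0.97 for both times (SE 0.24, adjusted p = 0.0576). Close to the threshold, its call depended on the setting. It passed for both times after median centring (adjusted p = 0.0443), after quantile normalization (0.0464) and with an intensity trend (0.0498). At 4 weeks it passed in the fit of these groups alone (0.0233). At 2 weeks it passed without 2 week replicate 1, at -1.42 (adjusted p = 0.0195), and stood at -0.44 without replicate 2 (adjusted p = 0.254).

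None of the remaining Cyp2d genes passed. Cyp2d9, a male-specific steroid hydroxylase, had 12.61, 12.64 and 12.64 in controls, 12.61 and 12.53 on the 2 week arrays, and 12.61 and 12.57 on those of 4 weeks, for log2 fold changes of -0.06 and -0.04 (SE 0.04 each). Cyp2d10 was at 0.11 at 4 weeks (SE 0.05, adjusted p = 0.253), Cyp2d22 at 0.11 (SE 0.09) and the transcribed pseudogene Cyp2d13 at 0.14 (SE 0.11). Cyp2d11, Cyp2d12, Cyp2d34 and the pseudogene Cyp2d37-ps lay between -0.40 and 0.09 at 4 weeks. Cyp2d10 shared 84.4% of its start region with Cyp2d9. Whether related transcripts contribute to these signals was not tested.

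**Figure D3:**
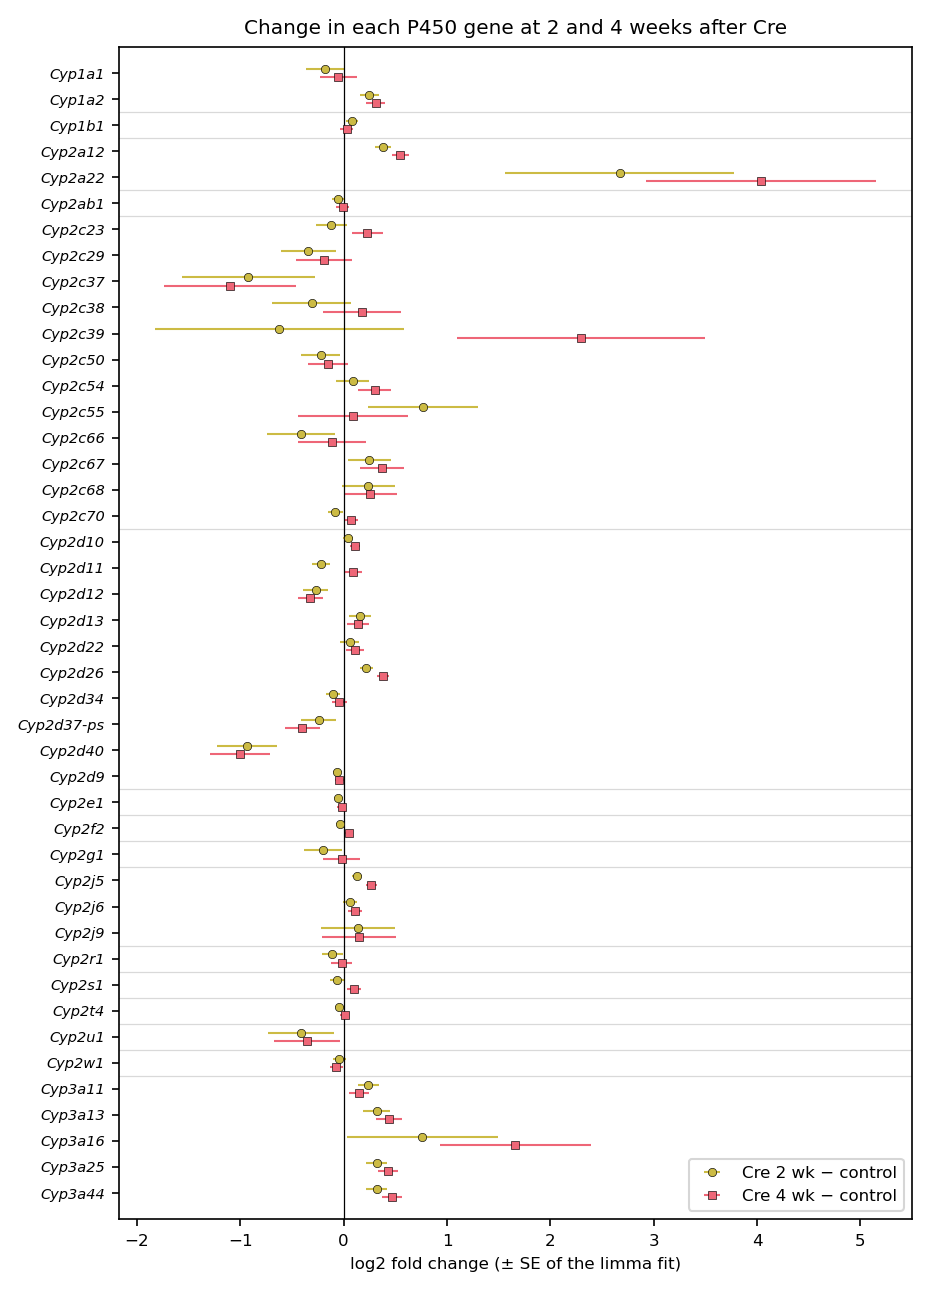
Log2 fold change (x axis) with the SE of the limma fit for each of the 44 P450 genes at 2 weeks (circles) and 4 weeks (squares) against control, in rows by subfamily. Most intervals lie within 0.5 log2 units of 0, the 5 Cyp3a genes all lie to the right, and Cyp2a22 (2.67 and 4.04) and Cyp2c39 (-0.62 and 2.30) have the widest intervals.

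Of the 12 Cyp2c genes, 0 passed in limma at either time or for both, and 0 had an unadjusted p under 0.05. Their median log2 fold changes were -0.17 at 2 weeks and 0.13 at 4 weeks. Cyp2c70, which makes muricholic bile acids in mice, was nearly level, at 13.49, 13.43 and 13.38 in controls, 13.28 and 13.43 on the 2 week arrays, and 13.45 and 13.57 on those of 4 weeks. Its log2 fold change was -0.08 at 2 weeks and 0.07 at 4 weeks (SE 0.07 each). Cyp2c29, an arachidonic acid epoxygenase, read 13.17, 13.32 and 13.32 in controls, 13.40 and 12.45 on the 2 week arrays, and 13.18 and 12.97 on those of 4 weeks. It was at -0.34 at 2 weeks (SE 0.27, adjusted p = 0.507), and passed as a fall of 0.81 on the log2 scale when 2 week replicate 1 was left out (adjusted p = 0.0262). That fit has 1 array at 2 weeks and takes its spread from the other groups, and without replicate 2 in its place the value was 0.13 (adjusted p = 0.669). Cyp2c23, an epoxygenase also known as Cyp2c44, followed the same course at 2 weeks, with 12.90 on replicate 1 and 12.37 on replicate 2, against 12.81, 12.67 and 12.78 in controls. With both replicates its value was -0.12 (SE 0.15, adjusted p = 0.69). It was -0.38 without replicate 1 (adjusted p = 0.0353) and 0.14 without replicate 2 (adjusted p = 0.322), again with 1 array left at that time.

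Other Cyp2c genes were dispersed within groups, and those described next were chosen after their values were seen. Cyp2c39 read 10.68, 10.68 and 7.45 in controls, 7.79 and 10.17 on the 2 week arrays, and 12.16 and 11.65 on those of 4 weeks. Control replicate 3 and 2 week replicate 1 were thus low together, and the 4 week arrays were above all others. The log2 fold change was -0.62 at 2 weeks (SE 1.20, adjusted p = 0.806) and 2.30 at 4 weeks (SE 1.20, adjusted p = 0.32), and without control replicate 3 it was -1.70 and 1.23. The 4 week against 2 week difference of 2.92 (SE 1.32, adjusted p = 0.714) did not pass. Cyp2c37, a CAR target, had 11.73, 11.69 and 12.55 in controls, 12.09 and 10.06 on the 2 week arrays, and 10.51 and 11.27 on those of 4 weeks. Its 4 week arrays were below all controls, at -1.10 (SE 0.64, adjusted p = 0.372).

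Cyp2c55, which PXR and CAR induce, read 7.62 and 7.46 at 2 weeks and 5.96 and 7.76 at 4 weeks, against 6.42, 6.74 and 7.16 in controls, so its 4 week arrays lay on both sides of the controls. Cyp2c38 had 8.30 and 7.0 at 2 weeks, against 8.00, 7.76 and 8.11 in controls. The other Cyp2c genes (Cyp2c50, Cyp2c54, Cyp2c66, Cyp2c67 and Cyp2c68) lay between -0.41 and 0.25 at 2 weeks and between -0.15 and 0.37 at 4 weeks, with adjusted p-values of 0.318 or more.

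**Figure D4:**
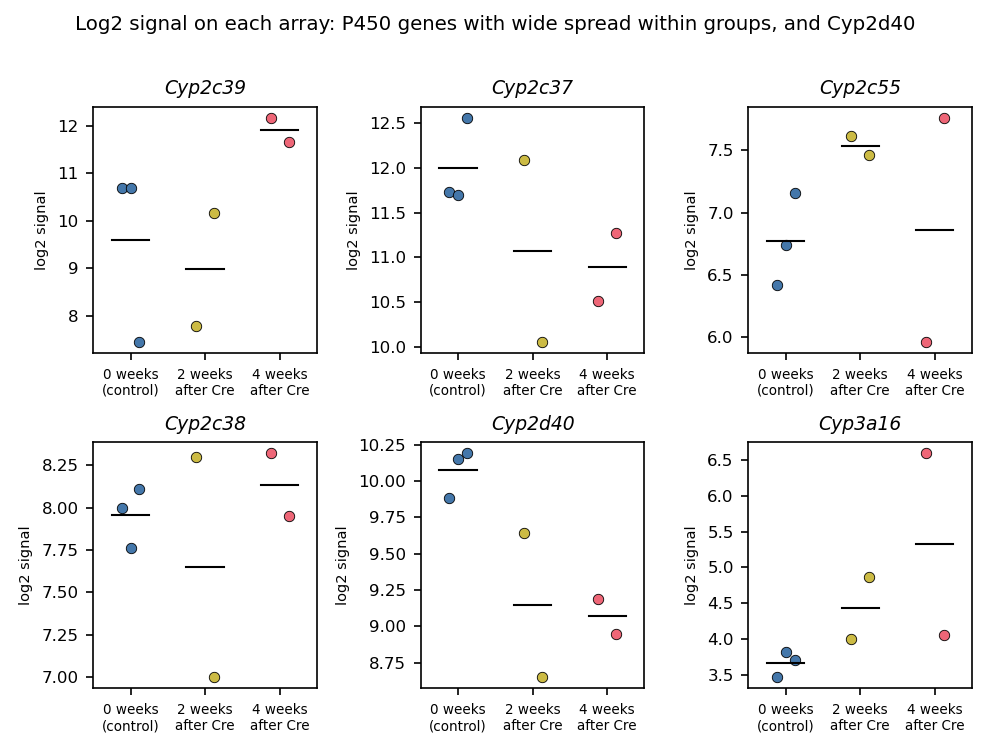
Log2 signal (y axis, each panel with its own range) on every array at 0 weeks (control), 2 weeks and 4 weeks for Cyp2c39, Cyp2c37, Cyp2c55, Cyp2c38, Cyp2d40 and Cyp3a16. Points are arrays and bars are group means. Replicates of a group lie up to 3.23 log2 units apart (Cyp2c39 in controls), and Cyp2d40 is the 1 gene here whose arrays after Cre all lie below the controls.

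The spread between replicates was itself wide in this gene set. At 2 weeks, 7 of 44 members (15.9%) had replicates at least 2-fold apart, against 0.838% of all genes: Cyp2a22, Cyp2c37, Cyp2c38, Cyp2c39, Cyp2c66, Cyp2j9 and Cyp2u1. At 4 weeks there were 3 (6.82%, against 0.488%), namely Cyp2a22, Cyp2c55 and Cyp3a16, and among controls 1 (2.27%, against 0.351%), Cyp2c39. The median gap between the highest and lowest array of a group was 0.17 log2 units for members at 2 weeks, 0.11 at 4 weeks and 0.23 in controls, against 0.11, 0.08 and 0.14 for all genes. These shares are descriptions, with no test. Values exactly equal on at least 2 arrays occurred in 14 of 44 members and in 58.4% of all genes, and their part in the gaps was not tested. The 2 week replicates also differed in side: 19 members lay below all controls on replicate 2 (43.2%, against 33.3% of all genes), where Cyp2a22 was high, and 6 on replicate 1 (13.6%, against 28.8%). Among the 19 and not among the 6 were Cyp2c23, Cyp2c29, Cyp2c37, Cyp2c38, Cyp2c50, Cyp2c66, Cyp2d9, Cyp2d12, Cyp2d34, Cyp2d37-ps, Cyp2j9, Cyp2r1, Cyp2s1, Cyp2t4 and Cyp2u1. Above all controls lay 14 members on replicate 2 (31.8%, against 30.3% of all genes) and 18 on replicate 1 (40.9%, against 28.5%).

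Cyp1 genes, the classical targets of the aryl hydrocarbon receptor, did not pass in any comparison. Cyp1a2, which oxidises caffeine and aromatic amines, read 13.44, 13.35 and 13.51 in controls, 13.59 and 13.77 on the 2 week arrays, and 13.65 and 13.84 on those of 4 weeks. All arrays after Cre were above all controls, at 0.28 for both times (SE 0.07, adjusted p = 0.0676), and after quantile normalization it passed, at 0.35 (adjusted p = 0.0336). Cyp1a1, which is inducible by dioxin, overlapped between groups (5.51 to 6.16 in controls, 5.64 and 5.75 at 2 weeks, 5.81 and 5.85 at 4 weeks). Cyp1b1, mostly an enzyme of cells outside the hepatocyte lineage, stayed between 5.49 and 5.68 on all 7 arrays.

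Of the subfamilies with 1 gene measured, none passed in limma in any comparison, nor at an unadjusted p under 0.05. Cyp2e1, which oxidises ethanol and paracetamol around the central vein, read 14.31, 14.33 and 14.34 in controls, 14.31 and 14.24 on the 2 week arrays, and 14.29 and 14.31 on those of 4 weeks, with log2 fold changes of -0.05 and -0.02 (SE 0.04 each). These signals lie near the top of the arrays, whose maxima were 14.636 to 14.722. Cyp2f2, a periportal enzyme that activates naphthalene, stayed between 13.68 and 13.81. Cyp2r1, the vitamin D hydroxylase of liver, had 7.87, 7.86 and 7.89 in controls, 7.93 and 7.60 on the 2 week arrays, and 7.86 and 7.85 on those of 4 weeks. It was at -0.11 at 2 weeks (SE 0.10, adjusted p = 0.556). With 1 array left at that time, it was at -0.28 without replicate 1 (adjusted p = 0.0208) and at 0.06 without replicate 2 (adjusted p = 0.466). Cyp2u1, a fatty acid hydroxylase, was at -0.41 at 2 weeks (SE 0.32, adjusted p = 0.503), with arrays at 9.71 and 8.67.

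Cyp2g1 of the olfactory mucosa, Cyp2s1 of epithelia outside the liver, Cyp2ab1, Cyp2t4 and Cyp2w1 lay between -0.20 and 0.10 at both times. Of these, Cyp2ab1, Cyp2s1, Cyp2t4 and Cyp2w1 had the same deposited value on at least 5 arrays. Such exact repeats on at least 2 arrays occurred in 14 of 44 members and in 58.4% of all genes.

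Arranged by what they share, 8 measured members reported as CAR or PXR targets had a median of 0.17 at 2 weeks and 0.12 at 4 weeks, with 0 passing at either time, and Cyp3a25 for both times. The 7 measured pericentral members had medians of -0.05 and -0.02, with 0 passing. The list of arachidonic acid epoxygenases held 8 genes, among them Cyp2u1, described above as a fatty acid hydroxylase. Of these 8, Cyp2j5 passed, and the medians with Cyp2u1 included were -0.21 and 0.16. Of 7 genes listed as female-biased, 2 were measured, Cyp3a44 and Cyp3a16. The 2 listed male-biased members did not pass. At 2 and 4 weeks Cyp2d9 was at -0.06 and -0.04 (SE 0.04 each) and Cyp2u1 at -0.41 and -0.35 (SE 0.32 each). Below 0 at these times were 8716 and 7951 of all 16819 genes. RefSeq holds 13 other protein-coding genes of these families that had no probe set with a single symbol, among them Cyp2a4, Cyp2a5, Cyp2c40, Cyp2c69 and Cyp3a41a, and they are not analysed here.

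Between the times, 0 of 44 members differed, beside 0.00595% of all genes (1 of 16819). At an unadjusted p under 0.05 there were 3 members (6.82%, against 7.43% of all genes): Cyp2d11, Cyp2d26 and Cyp2j5. Of the 44 members, 35 had a higher mean at 4 weeks than at 2 weeks, as did 8884 of all 16819 genes, with a median difference of 0.08, beside 0.01 for all genes. The difference, 4 weeks minus 2 weeks, was 0.16 for Cyp2d26 (SE 0.06, adjusted p = 0.644) and 0.14 for Cyp2j5 (SE 0.05, adjusted p = 0.629).

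Genes that serve or control these enzymes were examined beside them. Of 14 measured genes for electron donors and haem supply, 0 rose and 3 fell at 4 weeks, when 4.62% of all genes fell, with a list median of -0.20. Blvra, which reduces biliverdin from haem breakdown, was at 9.17 and 9.21 at 4 weeks, against 9.63, 9.54 and 9.57 in controls (log2 -0.38, adjusted p = 0.0211). Cyb5r3, the reductase that passes electrons to cytochrome b5, was at 11.51 and 11.30, against 12.01, 11.99 and 11.96 (-0.59, adjusted p = 0.038). Urod, a haem synthesis enzyme, was at 9.84 and 9.70, against 10.25, 10.10 and 10.21 (-0.42, adjusted p = 0.0443). Cyb5a itself was at -0.23 (adjusted p = 0.204) and the haem-binding partner Pgrmc1 at 0.14 (adjusted p = 0.27). Alas1, the rate-limiting enzyme of haem synthesis, named here after its values were seen, read 10.56 and 12.36 at 2 weeks and 10.66 and 11.96 at 4 weeks, against 12.65, 12.48 and 12.69 in controls, and did not pass (adjusted p = 0.334 and 0.265). Por, the P450 reductase gene, is not analysed here.

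Of 28 measured receptors and transcription factors of P450 genes, 4 rose and 2 fell at 2 weeks, when 3.46% of all genes rose and 2.47% fell, and 3 rose and 3 fell at 4 weeks, when 5.15% rose and 4.62% fell. Medians were 0.02 and 0.03. The D-site regulators Dbp (-2.41 at 2 weeks and -1.67 at 4 weeks, adjusted p = 0.00402 and 0.00851) and Tef (-1.73 and -1.29, adjusted p = 0.00789 and 0.0112), which drive daily rhythms of detoxification genes, fell at both times. The sample details used here give no hour of collection, and the part of time of day was not tested. Stat5b, the mediator of the growth hormone signal, rose by 0.79 and 0.71 (adjusted p = 0.0102 and 0.00979), and Nfe2l2, the regulator of the oxidative stress response, by 1.20 and 0.97 (adjusted p = 0.0134 and 0.016). Hnf4a was level at -0.01 and 0.03, and Nr1i3, which encodes CAR, at 0.06 and -0.03. The gene of the aryl hydrocarbon receptor, Ahr, named after its values were seen, rose by 0.59 at 2 weeks (adjusted p = 0.0453) and was at 0.44 at 4 weeks (adjusted p = 0.0707), while its targets among the members did not pass. Of 32 P450 genes of families 4 and above, 0 rose and 1 fell at 4 weeks, Cyp7a1, beside 5.15% and 4.62% of all genes. The steroid and oxysterol hydroxylase Cyp7b1 was at -0.91 (adjusted p = 0.0986) and the fatty acid hydroxylase Cyp4a12a at -0.02.

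The calls at 4 weeks depended on single arrays. Without control replicate 1, 2 or 3 the number of members called at 4 weeks was 0, 0 and 1 (Cyp3a44), and without 4 week replicate 1 or 2 it was 0 each time. In the same fits 457, 312, 294, 63 and 94 of all genes were called, against 1643 with all arrays. When either 2 week array was left out alone, 1948 of all genes and 5 members were called at 4 weeks, Cyp2a22, Cyp2a12, Cyp2d26, Cyp2j5 and Cyp2d40, the last as a fall. In a fit without 1 of the 2 arrays of a time, the spread comes from the other groups alone, and the remaining array is assumed to vary like them. At 2 weeks, leaving out replicate 2 gave 0 calls among members and 329 over all genes. Leaving out replicate 1 gave 6 calls among members, with Cyp2a12 and Cyp2a22 as rises and Cyp2c23, Cyp2c29, Cyp2d40 and Cyp2r1 as falls, and 2168 calls over all genes. For the mean of both times, the count was 0, 0 and 1 without control replicate 1, 2 or 3, against 5 with all arrays. In those fits 854, 570 and 573 of all genes were called, against 2171 with all arrays. The count also moved when an array of 2 or 4 weeks was left out, which leaves 1 array at that time.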

How the data were processed

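The authors deposited 1 table of log2 signals for 21093 probe sets on 7 arrays. The scale was read from the values. The submitters' processing notes list GCOS 1.4 but not what it did. The sources used here do not give how probe signals were corrected, summarised and normalized. Array number (3, 2 and 2) limits the precision, and no detection calls or scan dates were given. Of the probe sets, 17709 had 1 gene symbol, 187 several and 3197 none. Per gene, the probe set with the highest mean was kept. The accessions of 0 of the 44 members' probe sets included a RefSeq transcript of another gene, but probe sequences were not used, so probes shared among near-identical P450 genes cannot be counted and values may include relatives.

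A model of 3 groups was fitted to all 16819 genes with limma 3.58.1 (R 4.3.3; lmFit, eBayes; 4 residual and 1.69 prior degrees of freedom), with two-sided tests, Benjamini-Hochberg adjustment over all genes and a threshold of 0.05. These steps were also tested on simulated data, with independent noise on each array and the same shift at both times. That simulation cannot show how the steps handle exactly repeated values or replicates that disagree. Start regions were aligned with Biopython 1.88 with free end gaps. No filter or further scaling was applied. The alternatives were fits of 2 groups, median centring, quantile normalization, a mean of at least 5, probe set means, an intensity trend, a replicate block, omission of each array and an added 2-fold limit. Members and gene lists were chosen with earlier results of these data known. Named genes were all members passing in any comparison, up to 3 others per subfamily with the highest mean, and in the other lists up to 4 passing and 2 further genes. Where P450 genes outside this rule are described, the text says so or gives them as members of a group.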

Additional observations from a re-analysis of the deposited data

Results flagged for a closer look

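Cyp2f2 was the 1 of 44 members whose arrays lay on opposite sides of the controls at the 2 times. It read 13.70 and 13.68 at 2 weeks, below the controls at 13.73, 13.73 and 13.71, and 13.74 and 13.81 at 4 weeks, above them. The difference of 0.08 between 4 and 2 weeks (SE 0.04) did not pass when tested (limma, adjusted p = 0.749). No group held the 4 or more arrays needed to look for a single array far from the others.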

How the results depend on the processing

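Members named by rule were checked in each comparison under each alternative fit, so each value was checked many times. For values that passed, 0 of 121 such checks changed sign and 58 no longer passed. Of 1470 checks of values that had not passed, 16 passed, and 58 changed sign without passing. Members named after their values were seen, such as Cyp2d40, are not in these counts. At 4 weeks the fit of 2 groups and those without either 2 week array give the same result, and each is counted. Leaving out 1 array gave 0 to 6 called members at 2 weeks, 0 to 5 at 4 weeks and 0 to 7 for both times, with 0 throughout between the times. Median centring gave 1 call at 2 weeks (1237 of all genes). With a 2-fold limit added, 0 members remained in any comparison. Replicate numbers are shared between groups, and deviations of same-numbered arrays correlated between -0.065 and 0.111. In a group of 2 arrays the deviations mirror each other, so correlations of differently numbered arrays have the opposite sign by construction. These values therefore cannot decide whether the numbers pair the arrays. With the replicate block, 0 members were called at 4 weeks and 0 for both times, when 2 and 5 of all genes were called.

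Of the genes for electron donors, haem supply and regulation (7 called at 2 weeks, 9 at 4 weeks and 12 for both times), leaving out 1 array gave 1 to 13, 0 to 11 and 4 to 16. The fit of 2 groups gave 4 at 2 weeks (276 of all genes), and median centring and quantile normalization gave 11 each (1237 and 1216). The 2-fold limit left 3, 4 and 5 at 2 weeks, 4 weeks and both times, beside 0.88%, 1.32% and 1.24% of all genes. With the replicate block the list count was 0 at each, when 0, 2 and 5 of all genes were called. For each of these changes the cause was not tested. Signals near the ends of the array range limit what could be seen for Cyp2e1, Cyp3a16 and, in controls, Cyp2a22.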
